A study of Mus musculus with 4 samples.

Results

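The transcripts of 9 receptors through which growth factors and interleukins act on blood-forming cells were followed across bone marrow lineages and across 3 treatments. The genes are Csf1r, Csf2ra, Csf2rb, Csf3r, Epor, Il1r1, Il1rl1, Il6ra and Il6st. They were chosen by name, as 9 of the 32285 genes in the deposited matrices, and every one of the 9 was detected.

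The receptors belong to 4 groups that work differently. The receptors for G-CSF (Csf3r) and erythropoietin (Epor) pair with themselves and signal through JAK kinases and STAT factors, and the M-CSF receptor (Csf1r) is itself a tyrosine kinase. GM-CSF binds Csf2ra and signals through Csf2rb, the common beta chain that also serves interleukin-3 and interleukin-5, while interleukin-6 binds Il6ra and signals through Il6st (gp130), which many cytokines share. Il1r1 and Il1rl1 (ST2) bind interleukin-1 and interleukin-33 and signal through MyD88. In bone marrow these receptors are known for steering granulocyte, monocyte, erythroid and mast cell output and for passing inflammatory signals to stem and progenitor cells.

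The bone marrow came from 6 female Tppp3CreER LSLTdTomato mice, aged 6 weeks, in which a tamoxifen-activated Cre driven by Tppp3 switches on the tdTomato reporter. In the tamoxifen group, 2 mice were injected with tamoxifen on postnatal days 0 and 3. The tamoxifen+rapamycin group comprised 2 mice given both agents on the same days. The late rapamycin group comprised 2 mice given rapamycin on postnatal day 30 and no tamoxifen, so this group differs from the others in tamoxifen, in the age at rapamycin and in the time since injection, and these cannot be told apart. No mouse was untreated. The design text also gives an interval of 2 weeks before isolation. On each of 2 days 1 mouse per group was processed, and the 3 mice of a day were marked with hashtag antibodies and pooled in 1 single-cell RNA library. Sorted Lin-Sca+Kit+ and Lin-Sca-Kit+ cells were combined with whole marrow, so the share of a lineage among the cells is set by the sort. The deposited hashtag table, used here, calls the late rapamycin group Ctrl. It also gives tamoxifen+rapamycin the hashtags 1 and 4 and tamoxifen the hashtags 2 and 5, whereas the labels number the mice in the opposite order. If those numbers were hashtag numbers, the tamoxifen and tamoxifen+rapamycin mice would be exchanged, and the late rapamycin mice would be the same.

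After filtering, 33741 cells remained, 5386 to 6222 per mouse, with 21974302 to 36031756 UMIs (unique molecular identifiers, which count RNA molecules) per mouse. Marker genes that exclude the 9 receptors placed 25081 cells in 15 lineage gates, and 8660 cells (25.7%) were left outside. Each marker of a list was at least 2-fold higher in its own gate than in the other gates pooled, which follows from the gating. Levels are given as CPM, the UMIs of a gene scaled to a total of 1000000 UMIs for that mouse in that gate, and as the mean ± SD of 6 mice. All 6 mice had at least 10 cells in each of 14 gates, and at least 50 in the 10 gates used for treatment tests. The 2 libraries shared 126 cell barcodes, 55 of them among the cells kept in both. Late rapamycin replicate 1 stood apart from the other mice. It held 1083 neutrophil progenitors and 1154 myelocytes but 64 B progenitors, 85 mature neutrophils and 77 HSCs, and its results are given separately where they decide a value.

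**Figure D1:**
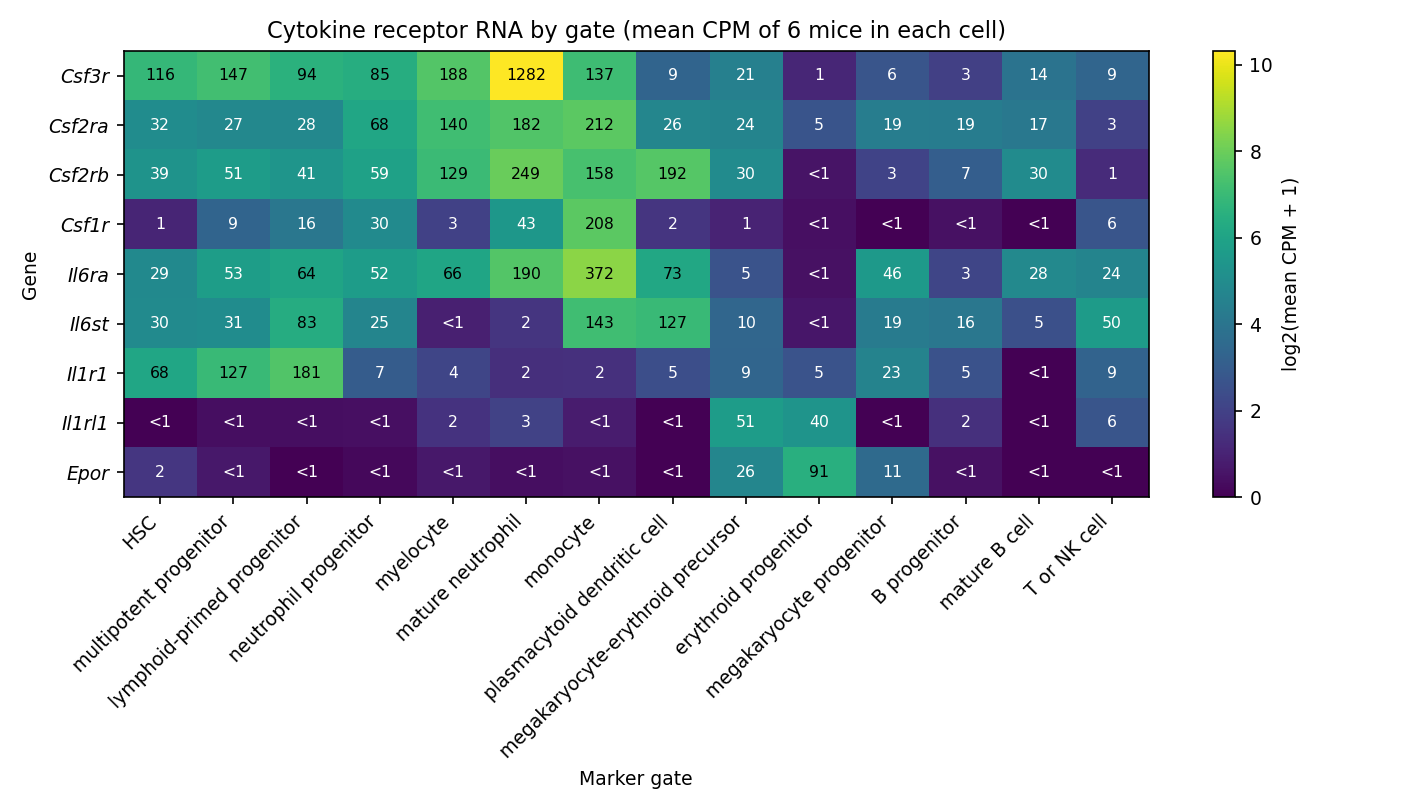
Heat map of the mean level of each of the 9 receptors (CPM, mean of 6 mice) in 14 marker-defined gates. Csf3r reached 1282 CPM in mature neutrophils, Il6ra, Csf2ra, Csf1r and Il6st were highest in monocytes, Il1r1 in lymphoid-primed progenitors, and Epor and Il1rl1 in the erythroid branch.

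Csf3r, the receptor through which G-CSF drives neutrophil production, was highest in mature neutrophils. In that gate the 6 mice ranged from 1012 to 1578 CPM, with a median of 1244 (mean 1282 ± 275 CPM, SD, n = 6). The next gate, myelocytes, averaged 188 ± 17.3 CPM, and the ranges of the 2 gates did not overlap. Along the neutrophil path the level did not climb steadily. It was 116 ± 29.6 CPM in HSCs, 147 ± 10.0 CPM in multipotent progenitors and 85.1 ± 9.61 CPM in neutrophil progenitors, before the higher values of myelocytes and mature neutrophils. Monocytes averaged 137 ± 32.2 CPM and overlapped with HSCs and multipotent progenitors. Megakaryocyte-erythroid precursors had 21.3 ± 3.53 CPM, and erythroid progenitors 1.14 ± 0.69 CPM from 33 UMIs in all, the lowest of the 14 gates. Mature neutrophils carried few UMIs per cell (median 1342). With stricter cell filters, which remove most shallow cells, the mature neutrophil level was 501 CPM, still the highest of the gates.

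In mature neutrophils the 2 processing days did not overlap for Csf3r. The 3 mice of day 1 had 1055, 1042 and 1012 CPM and the 3 mice of day 2 had 1578, 1434 and 1572 CPM, in the order tamoxifen, tamoxifen+rapamycin, late rapamycin. Each day held 1 mouse per treatment, so the day separates the mice and the treatments do not. Of 50 receptor and gate pairs with at least 100 UMIs, 5 had days that did not overlap, a share below the 12.9% of all gene and gate pairs of that depth. Day 2 was higher for Csf3r in mature neutrophils and Csf2ra in B progenitors, and day 1 for Csf3r in myelocytes, Csf2rb in neutrophil progenitors and Il6ra in HSCs.

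Csf2ra, the GM-CSF binding chain, was highest in monocytes at 212 ± 21.4 CPM (SD, n = 6; lowest 186, median 206, highest 244). Mature neutrophils followed with 182 ± 32.9 CPM and myelocytes with 140 ± 13 CPM, and neighbouring gates in this order overlapped. Neutrophil progenitors had 67.7 ± 7.05 CPM, below every myelocyte value and above every HSC value (HSC mean 31.7 ± 6.89 CPM). Erythroid progenitors had 5.49 ± 1.70 CPM. Csf2ra therefore had its step between HSC and neutrophil progenitor and another between neutrophil progenitor and myelocyte, at the stage where the Csf3r mean was lowest on this path.

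Csf2rb, the signalling chain that Csf2ra needs, averaged 249 ± 107 CPM in mature neutrophils, 192 ± 35.8 CPM in plasmacytoid dendritic cells, 158 ± 58.8 CPM in monocytes and 129 ± 87.1 CPM in myelocytes. These SDs contain 1 mouse that was far above the rest, described with the treatments. In the other 5 mice mature neutrophils ran from 176 to 235 CPM, monocytes from 113 to 164 CPM and myelocytes from 80.3 to 111 CPM. When each cell was thinned to 1000 UMIs the first place went to plasmacytoid dendritic cells (223 CPM against 218 CPM in mature neutrophils), so those gates cannot be ordered. The basophil or mast cell gate held 79 cells and was only pooled over mice: its 74 Csf2rb UMIs gave 238 CPM (exact Poisson 95% interval 187 to 298, counting error only). UMIs of both GM-CSF chains were found in 290 of 1206 monocytes and in 1 of 2711 B progenitors, with medians of 3091 and 1590 UMIs per cell. In monocytes Csf2rb was found in 47.9% of cells with a Csf2ra UMI and in 43.0% of cells without.

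Csf1r, the M-CSF receptor that monocytes and macrophages need, was highest in monocytes, with no overlap with any other gate. Monocytes ranged from 150 to 257 CPM (median 210, mean 208 ± 38.9 CPM, SD, n = 6), and the highest mature neutrophil value was 59.7 CPM (mean 42.7 ± 16.5 CPM). Neutrophil progenitors had 29.9 ± 10.3 CPM, lymphoid-primed progenitors 15.9 ± 8.40 CPM and multipotent progenitors 9.09 ± 6.53 CPM, and neighbours among these overlapped. Myelocytes, between 2 gates with higher means, had 2.98 ± 1.41 CPM from 29 UMIs.

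**Figure D2:**
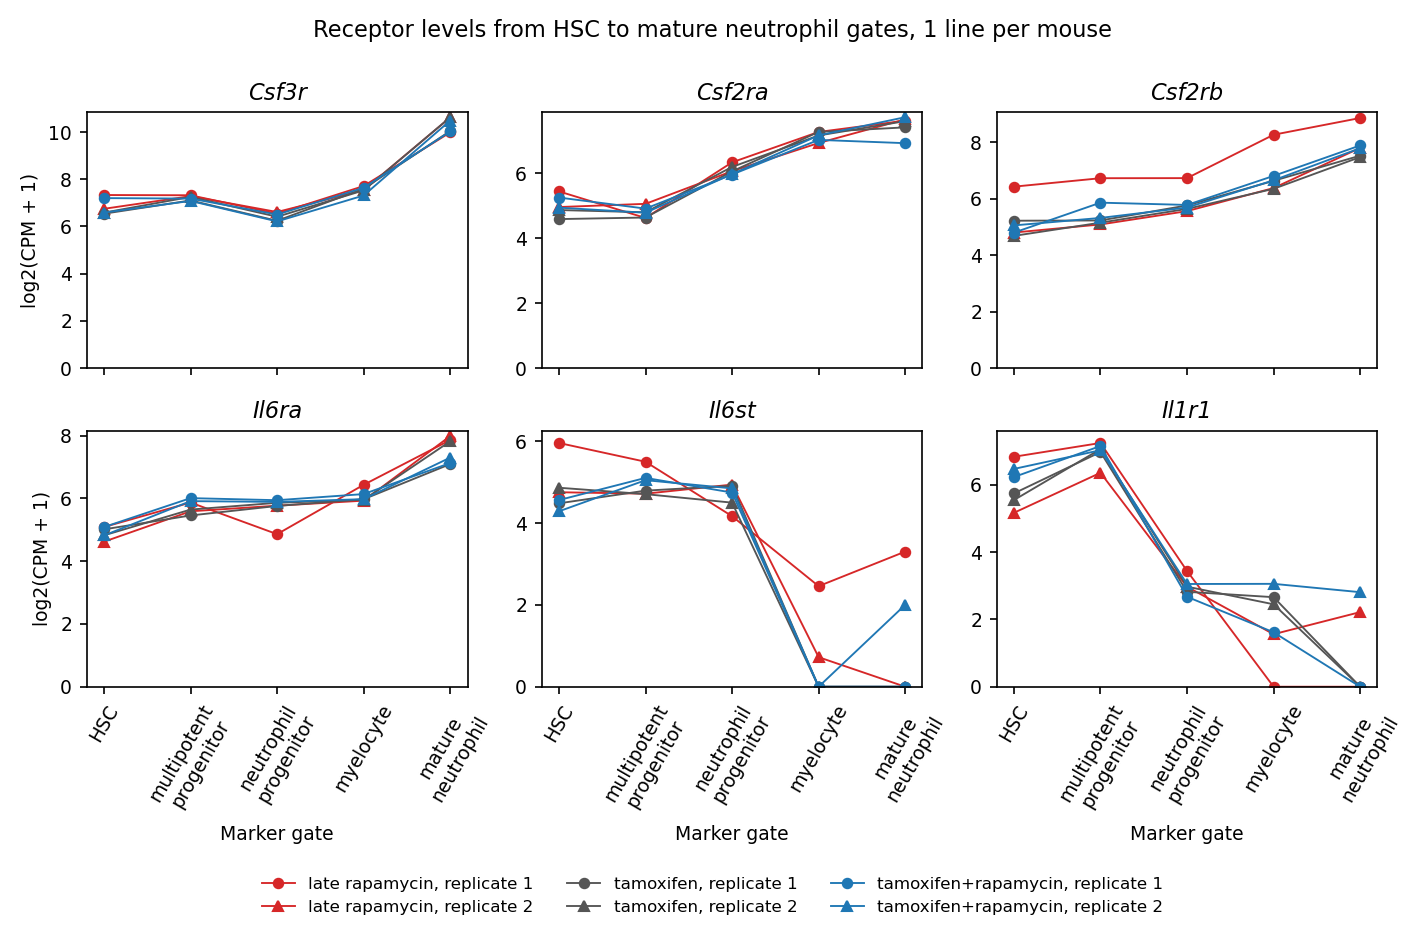
Levels of 6 receptors, as log2(CPM + 1), from HSC to mature neutrophil, with 1 line per mouse; each panel has its own scale starting at 0. Csf3r dips at the neutrophil progenitor and then reaches 1012 to 1578 CPM in mature neutrophils, and Il6st is near 0 in myelocytes and mature neutrophils while Il6ra is not.

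The position of these genes on the mouse genome (GRCm38, the build named mm10 in the submitters' processing notes) is as follows. Csf3r lies at chr4:126024550-126044440 on the plus strand, Csf2ra at chr19:61223957-61228429 on the minus strand and Csf2rb at chr15:78325752-78353847 on the plus strand. Csf2rb has a neighbouring relative, Csf2rb2, at chr15:78282507-78305721 on the minus strand, which encodes an interleukin-3 specific beta chain. Of the 50-base stretches in the 4764-base Csf2rb transcript, 18.9% also occur in Csf2rb2, but 0% of those in its last 1000 bases, where a 3' library is read. In the other annotated Csf2rb transcripts that last share was 0% to 43.0%, the highest in a transcript of 328 bases. How the authors' counting treated shared reads is not given in the sources used here. Upstream sequences from RefSeq (GRCm38.p6) were searched for GAGGAA, the core bound by the myeloid factor PU.1, and for AGATAA, the core bound by GATA factors, on both strands, in the 250 bases before each start. There were 9 such windows for 7 of the receptors, and none for Csf1r or Csf2rb. GAGGAA was found in the windows of Csf3r, Csf2ra and Il6ra, and 23.3% of all 32851 windows hold it. The sites of Csf3r and Csf2ra are shown as examples, 1 from a receptor highest in mature neutrophils and 1 from a receptor highest in monocytes; capitals mark the motif on the gene's own strand.
Csf3r, chr4:126024561-126024590, plus strand, motif starting 86 bases before the start: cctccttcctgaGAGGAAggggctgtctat
Csf2ra, chr19:61228419-61228444, minus strand, motif starting 14 bases before the start: caacctgcagatGAGGAAgaggaagc
In Csf2ra a second copy follows directly within the printed stretch, starting 8 bases before the start. Both windows overlap an annotated exon. The RefSeq starts of these windows lie inside the gene spans given above, so the Csf3r site and part of the Csf2ra site fall within those spans. These matches describe the letters only, and binding was not measured.

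The 2 chains of the interleukin-6 receptor parted company in the neutrophil path. Il6ra, which binds the cytokine, was present throughout: 51.7 ± 11.9 CPM in neutrophil progenitors, 66.5 ± 9.79 CPM in myelocytes and 190 ± 51.9 CPM in mature neutrophils. Il6st, which carries the signal, was at 25.2 ± 4.97 CPM in neutrophil progenitors, but only 25 UMIs were found in 3172 myelocytes and 3 UMIs in 1209 mature neutrophils, against 830 and 364 UMIs of Il6ra in the same cells. Of the 25 myelocyte UMIs, 24 came from late rapamycin replicate 1 and 1 from late rapamycin replicate 2, and the other 4 mice had 0. The myelocyte gate of late rapamycin replicate 1 also held more of the neutrophil progenitor markers, 1585 CPM summed over 6 genes against 400 to 599 CPM in the other 5 mice, and their part in its Il6st UMIs was not tested. The pooled Il6st level was 2.20 CPM in myelocytes (exact Poisson 95% interval 1.42 to 3.25).

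In monocytes both chains were found. Monocytes had the highest mean of each, with Il6ra at 372 ± 45.8 CPM (lowest 295, median 373, highest 429) and Il6st at 143 ± 29.4 CPM (lowest 112, median 134, highest 194). Il6ra in monocytes exceeded every value in mature neutrophils, and mature neutrophils exceeded every value in plasmacytoid dendritic cells (72.6 ± 26.5 CPM). Il6st was also found in plasmacytoid dendritic cells (127 ± 69.7 CPM), lymphoid-primed progenitors (83.4 ± 28.2 CPM) and T or NK cells (49.9 ± 34.2 CPM, from 26 UMIs), and the ranges of these neighbours overlapped. After thinning to 1000 UMIs per cell, plasmacytoid dendritic cells had 150 CPM and monocytes 123 CPM of Il6st, so their order depends on depth. HSCs had 29.2 ± 3.79 CPM of Il6ra and 29.7 ± 15.8 CPM of Il6st. UMIs of both chains were found in 301 of 1206 monocytes and 260 of 3174 neutrophil progenitors, but in 5 of 3172 myelocytes, 1 of 2711 B progenitors and 0 of 2118 megakaryocyte-erythroid precursors. Median UMIs per cell in these gates were 3091, 9434, 3113.5, 1590 and 4022, in the same order. Il6st was found in 34.1% of monocytes with an Il6ra UMI and 32.5% of those without. In neutrophil progenitors the shares were 26.1% and 11.9%. Il6ra lies at chr3:89864059-89913196 on the minus strand and Il6st at chr13:112464070-112510086 on the plus strand.

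**Figure D3:**
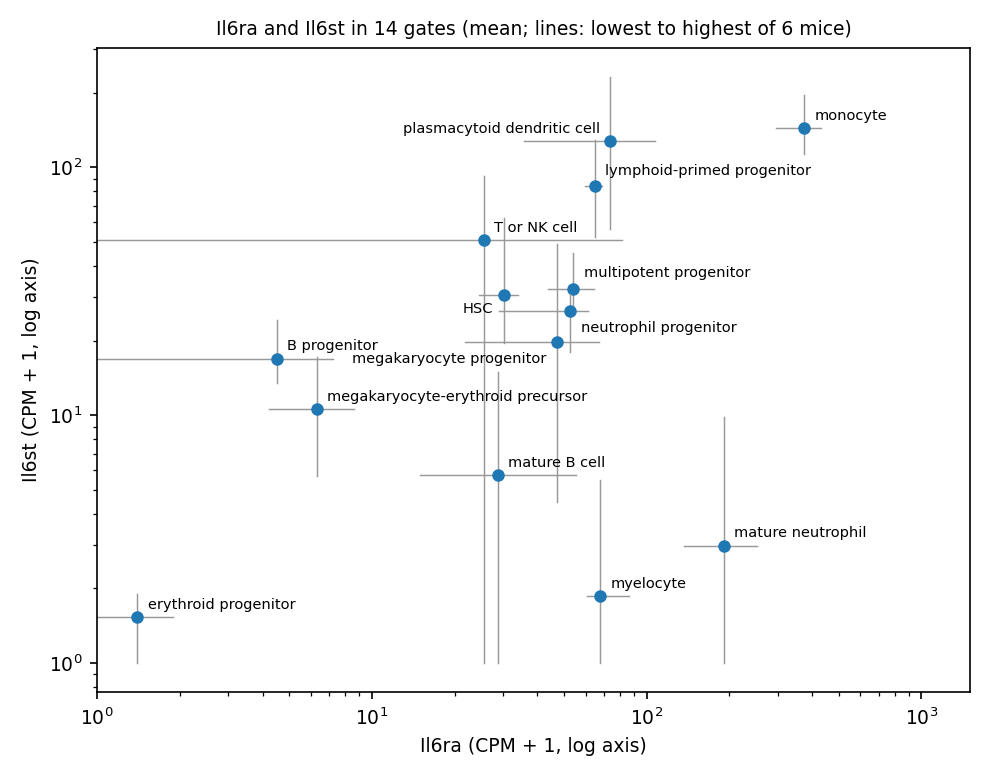
Mean Il6ra (horizontal) against mean Il6st (vertical) in each gate, both as CPM + 1 on log axes, with lines from the lowest to the highest of 6 mice. Myelocytes and mature neutrophils sit at the bottom right, with Il6ra means of 66.5 and 190 CPM and 25 and 3 Il6st UMIs in all.

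Il1r1, the receptor that carries the interleukin-1 signal, marked the early progenitors. Lymphoid-primed progenitors had 181 ± 30.5 CPM (SD, n = 6; lowest 148, median 175, highest 236), multipotent progenitors 127 ± 24.1 CPM (lowest 81.0, median 131, highest 150) and HSCs 68.0 ± 29.3 CPM (lowest 34.9, median 63.4, highest 113). Neighbours in this order overlapped in range. Megakaryocyte progenitors followed at 23.3 ± 16.3 CPM, with 31 UMIs in all, and neutrophil progenitors had 7.05 ± 1.53 CPM. Late rapamycin replicate 2 was the lowest mouse in all 3 early gates and late rapamycin replicate 1 the highest, so the spread in these gates is mostly a spread within 1 treatment.

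Il1rl1, the interleukin-33 receptor, sat on a different branch. Megakaryocyte-erythroid precursors had 51.0 ± 12.4 CPM and erythroid progenitors 40.2 ± 5.29 CPM, with overlapping ranges, and no other gate with 6 mice overlapped with erythroid progenitors. The pooled basophil or mast cell gate, a lineage known for Il1rl1, had 55 UMIs in 79 cells, or 177 CPM (exact Poisson 95% interval 133 to 230). In 1421 HSCs 0 UMIs were found, which allows up to 0.669 CPM at the limit of 3 counts, and megakaryocyte progenitors also had 0 UMIs. Il1r1 lies at chr1:40225080-40317257 and Il1rl1 at chr1:40429570-40465415, both on the plus strand, so neighbours on the chromosome were highest in different lineages.

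Epor, the erythropoietin receptor, was highest in the erythroid branch. Erythroid progenitors ranged from 81.2 to 96.1 CPM (median 91.7, mean 90.7 ± 5.91 CPM, SD, n = 6), a coefficient of variation of 6.52% against 6.03% to 83.6% over the 50 receptor and gate pairs with at least 100 UMIs. Megakaryocyte-erythroid precursors had 25.6 ± 4.12 CPM, with no overlap. Megakaryocyte progenitors had 10.5 CPM pooled, from 15 UMIs, and 4 gates had 0 UMIs: lymphoid-primed progenitors, plasmacytoid dendritic cells, mature B cells and T or NK cells. An Epor UMI was found in 62.5% of erythroid progenitors (median 11794 UMIs per cell) and in 0.111% of B progenitors (median 1590 UMIs per cell). After thinning every cell to 1000 UMIs the shares were 8.86% and 0%. The GATA core AGATAA, which reads as TTATCT from the other strand, was found in 4 windows of 3 receptors, Epor, Il6ra and both starts of Il1rl1, and 9.99% of all windows hold it. The windows of Epor and Il1rl1 are shown because these receptors share the erythroid branch as their leading gates with 6 mice; capitals mark the motif on the printed strand.
Epor, chr9:21963577-21963826, minus strand, motif starting 54 bases before the start: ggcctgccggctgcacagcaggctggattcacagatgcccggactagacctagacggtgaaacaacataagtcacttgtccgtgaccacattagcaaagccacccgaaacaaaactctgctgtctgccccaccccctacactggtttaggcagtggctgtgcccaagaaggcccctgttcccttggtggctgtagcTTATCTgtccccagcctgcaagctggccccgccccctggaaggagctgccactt
Il1rl1, first start, chr1:40429320-40429569, plus strand, motif starting 217 bases before the start: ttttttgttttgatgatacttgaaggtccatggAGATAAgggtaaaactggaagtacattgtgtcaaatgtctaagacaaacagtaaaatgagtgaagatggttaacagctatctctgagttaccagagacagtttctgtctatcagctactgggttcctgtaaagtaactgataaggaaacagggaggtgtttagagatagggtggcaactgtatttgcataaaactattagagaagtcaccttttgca
Il1rl1, second start, chr1:40439514-40439543, plus strand, motif starting 103 bases before the start: aaacagcattgtTTATCTcagcttcactga
Epor itself lies at chr9:21958897-21963506 on the minus strand. Il6ra, which was highest in monocytes, also holds the GATA core, and Il1r1 and Il6st hold neither core in the windows searched.

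For each receptor the 3 genes with the most similar profile over the 14 gates were listed, by Pearson correlation of mean log2(CPM + 1) among 10452 genes, as a description over gates that share libraries and depth. Csf3r was closest to Fgd4 (r = 0.949), Tbc1d2 (0.946) and Clec4e (0.944), and Csf2ra to Rnpep (0.954), Ubtd1 (0.950) and Ckap4 (0.942). Csf2rb was closest to Asah1 (0.924), Wdfy2 (0.921) and Atrnl1 (0.909), and Csf1r to Ifi202b (0.878), Gm20658 (0.877) and Adgre1 (0.873). The correlations of Il6ra were 0.902 with Hexa, 0.891 with Selenok and 0.880 with Twf2, and those of Il6st were 0.942 with Frmd4b, 0.927 with Rasa4 and 0.915 with Padi2. Il1r1 was closest to Hmga2 (0.947), Hoxa5 (0.945) and BC016579 (0.939). Il1rl1 was closest to Car1 (0.956), a gene used for gating, then Atp1b2 (0.941) and Gm15915 (0.939). Epor had the closest neighbours of the 9 receptors, Aqp1 (0.989), also a gating gene, Mylk3 (0.979) and Epdr1 (0.979).

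Among the treatments, no receptor passed the test in any gate. Each comparison had 55 receptor and gate tests, with UMIs summed per mouse and fitted with edgeR's quasi-likelihood test with the day as a block. For tamoxifen+rapamycin against tamoxifen 0 of 55 were called at an adjusted p under 0.05 (4 at an unadjusted p under 0.05), while 0.14% of all gene and gate tests were called. For late rapamycin against tamoxifen 0 of 55 were called (11 unadjusted), and 0.255% of all gene and gate tests were called. For tamoxifen+rapamycin against late rapamycin 0 of 55 were called (8 unadjusted), and 0.246% of all gene and gate tests. An unadjusted p under 0.05 was given to 4493, 7706 and 7564 of all 90171 gene and gate tests, in the order of these 3 comparisons. DESeq2 also called 0 in each comparison, and gave no adjusted p for 0, 5 and 3 of the 55. Its unadjusted p was under 0.05 for 2, 6 and 1 of the 55, and for 698, 1635 and 1463 of all 90171 tests. The median log2 difference over the 55 tests was 0.02, 0.13 and -0.09 in the same order, with ranges of -0.44 to 2.20, -0.89 to 1.83 and -0.83 to 1.06; over all genes tested the medians were within 0.01 of 0. With 2 mice per treatment the test can miss differences. The calls depended on the filter and on single mice. Without the low-count filter, which gave 88 tests per comparison, the counts were 2, 6 and 3. Without late rapamycin replicate 2 more were called, but the late rapamycin mouse that remains is then not replicated. The shares over all genes under these settings are not given here.

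Csf1r in multipotent progenitors had the largest differences. The 2 tamoxifen mice had 4.19 and 1.91 CPM, the tamoxifen+rapamycin mice 16.3 and 10.4 CPM and the late rapamycin mice 17.1 and 4.61 CPM, for days 1 and 2. Both tamoxifen mice were thus below all 4 rapamycin-treated mice, on 7 to 81 UMIs per mouse. The log2 difference from tamoxifen was 2.20 ± 0.39 (SE) with tamoxifen+rapamycin (adjusted p = 0.10; 1.96 on day 1 and 2.45 on day 2) and 1.83 ± 0.40 with late rapamycin (adjusted p = 0.0804; 2.03 and 1.27). The 8 monocyte markers in the same gate summed to 68.6 and 111 CPM with tamoxifen, as the lowest and highest mouse. They summed to 81.1 and 177 CPM with tamoxifen+rapamycin and to 69.5 and 185 CPM with late rapamycin, so the groups overlapped. Their part in the Csf1r difference was not tested. The tamoxifen+rapamycin difference was 2.15 when either late rapamycin mouse was left out of the shared fit. The late rapamycin difference was 2.21 without late rapamycin replicate 2, the rapamycin-treated mouse nearest to the tamoxifen mice. Its size without late rapamycin replicate 1 is not given here. The day 2 difference of 1.27 rests on replicate 2 alone. A fit with 1 mouse left out has 1 treatment with a single mouse, so only the size of the difference is given. In neutrophil progenitors the same gene was lowest in the late rapamycin mice (11.6 and 26.3 CPM), against 37.6 and 28.5 CPM with tamoxifen and 38.4 and 36.9 CPM with tamoxifen+rapamycin. Its log2 difference in the fit of all mice was 1.06 ± 0.31 for tamoxifen+rapamycin against late rapamycin (adjusted p = 0.697). For late rapamycin against tamoxifen it was -0.89 ± 0.32 (adjusted p = 0.702). Without late rapamycin replicate 2 these differences were 1.65 and -1.47, and without tamoxifen+rapamycin replicate 2 they were 1.23 and -0.89. The former was 1.06 without tamoxifen replicate 1.

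Il1r1 depended on the late rapamycin mice. In multipotent progenitors they had 150 and 81.0 CPM, on either side of the tamoxifen mice (125 and 132 CPM) and the tamoxifen+rapamycin mice (141 and 129 CPM). Without late rapamycin replicate 1 the remaining late rapamycin mouse was lower than the tamoxifen mice, with a log2 difference of -0.66. The tamoxifen+rapamycin mice were higher than that 1 mouse by 0.73, and by 1.26 in HSCs. In neutrophil progenitors the level of Il1r1 was low. Without late rapamycin replicate 2 its log2 difference there was 0.91 for late rapamycin against tamoxifen and -0.95 for tamoxifen+rapamycin against late rapamycin.

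Il6st in lymphoid-primed progenitors was lower in both tamoxifen mice, at 58.2 and 51.3 CPM, than in the tamoxifen+rapamycin mice (99.52 and 86.45 CPM) and the late rapamycin mice (128 and 76.5 CPM). The log2 differences from tamoxifen were 0.79 ± 0.20 (adjusted p = 0.248) and 0.89 ± 0.21 (adjusted p = 0.162). The first was 0.77 when either late rapamycin mouse was left out. The second was 1.14 without late rapamycin replicate 2, 1.005 without tamoxifen replicate 2 and 0.89 without tamoxifen+rapamycin replicate 1. Its size without late rapamycin replicate 1, the highest mouse, is not given here. Il1rl1 in erythroid progenitors was lower in both late rapamycin mice (34.9 and 34.6 CPM) than in both tamoxifen mice (44.8 and 45.9 CPM). The log2 difference was -0.41 ± 0.11 (adjusted p = 0.165), and -0.46 without late rapamycin replicate 1. The tamoxifen+rapamycin mice lay between, at 36.9 and 44.1 CPM. Epor in the same cells showed no such separation, with 87.1 and 96.1 CPM with tamoxifen, 81.2 and 89.4 CPM with tamoxifen+rapamycin and 96.1 and 94.1 CPM with late rapamycin.

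**Figure D4:**
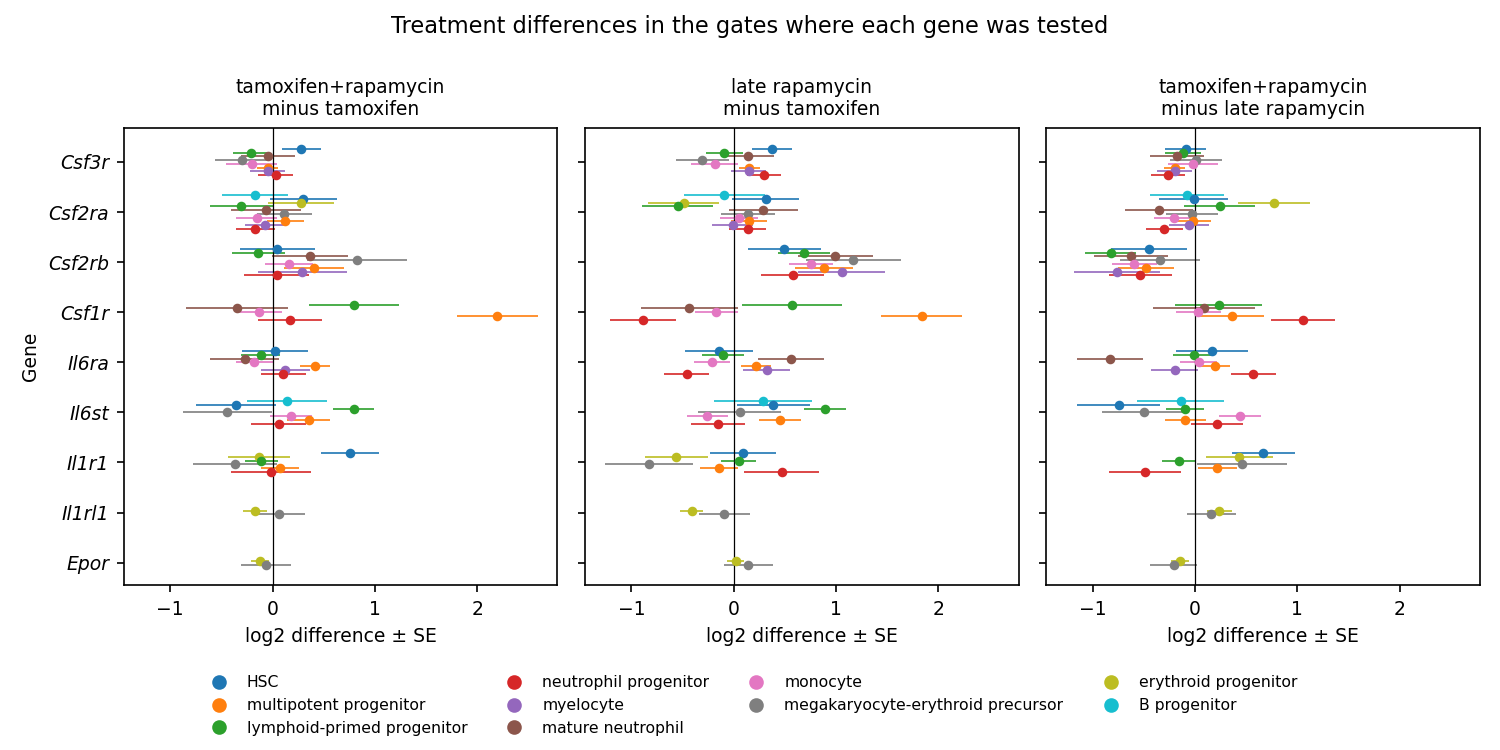
Log2 differences (± SE) between treatments for each receptor and tested gate, in 3 panels for the 3 comparisons, from edgeR fits on 2 mice per treatment. None of the 55 differences per panel passed the adjusted threshold, and the largest, Csf1r in multipotent progenitors, was 2.20.

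In most gates Csf2rb was set apart by 1 of the 2 late rapamycin mice. Late rapamycin replicate 1 had the highest Csf2rb of the 6 mice in 8 of 8 tested gates with at least 60 UMIs, a minimum chosen after its values were seen, at 1.82 to 3.79 times the median of the other 5. Over all gene and gate pairs of that depth this mouse was above the other 5 in 23.3%. In myelocytes it had 306 CPM against 80.3 to 111 CPM, in multipotent progenitors 105 against 32.9 to 56.9 CPM, in HSCs 84.8 against 24.6 to 36.2 CPM and in mature neutrophils 462 against 176 to 235 CPM. The gates with little Csf2rb did not share this: in B progenitors it had 7.70 CPM, from 1 UMI, against 4.07 to 8.72 CPM. Late rapamycin replicate 2 lay within the range of the other 4 mice in myelocytes (81.9 CPM) and mature neutrophils (221 CPM). Lymphoid-primed progenitors differed: both late rapamycin mice (59.8 and 52.8 CPM) were above both tamoxifen mice (30.5 and 40.1 CPM) and both tamoxifen+rapamycin mice (32.8 and 30.5 CPM). The late rapamycin minus tamoxifen log2 difference in myelocytes was 1.05 with both mice, 0.002 without replicate 1 and 1.84 without replicate 2; in multipotent progenitors it was 0.88, 0.06 and 1.44. Within days the myelocyte difference was 1.64 on day 1 and 0.03 on day 2. When either late rapamycin mouse is left out, the remaining mouse stands alone and is assumed to vary like the other groups. Only the size of the difference is therefore given for those fits.

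**Figure D5:**
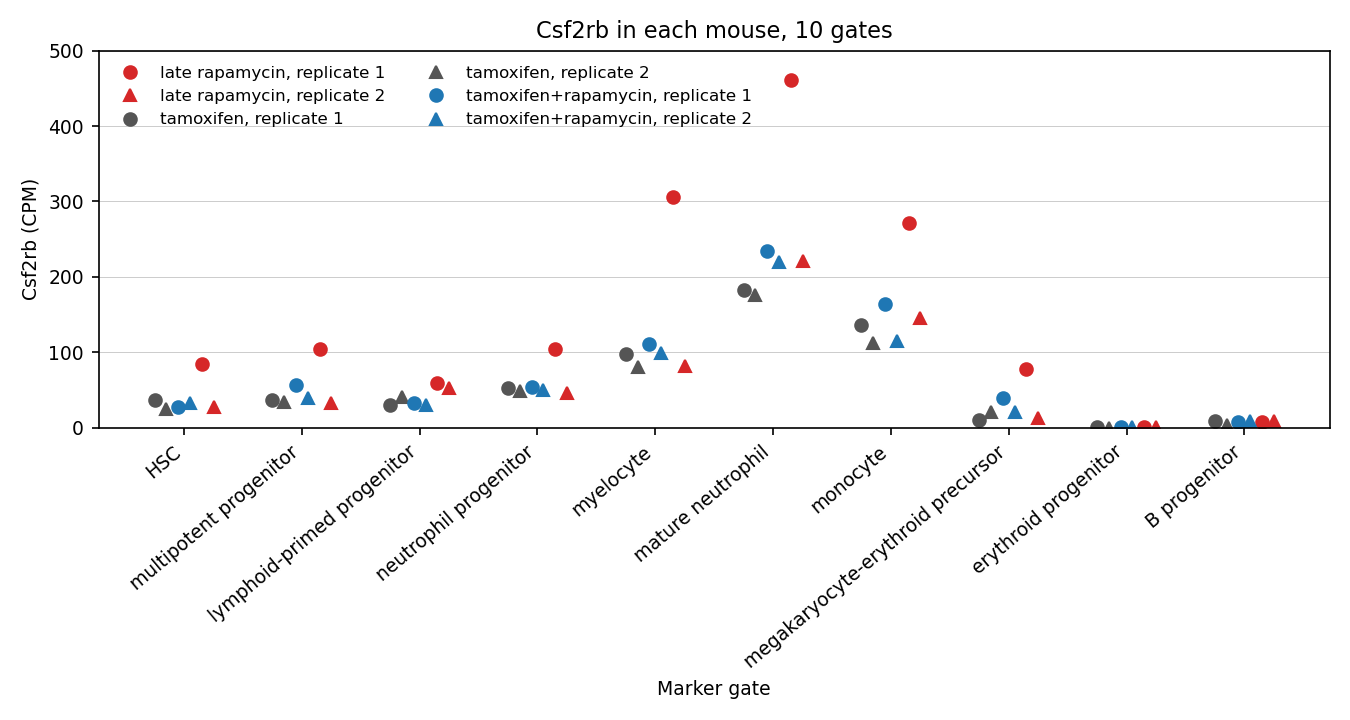
Csf2rb level (CPM, linear axis from 0) of each of the 6 mice in the 10 tested gates, coloured by treatment. Late rapamycin replicate 1 is above the other 5 mice in 8 gates, for example 306 CPM in myelocytes and 462 CPM in mature neutrophils, and is within them in B progenitors.

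No other receptor held this rank in every gate compared, but Il1r1 and Il6st held it in most. Late rapamycin replicate 1 was above the other 5 mice in 4 of 6 gates for Il1r1 and 5 of 7 for Il6st. The counts were 3 of 10 for Csf2ra, 3 of 8 for Csf3r, 2 of 7 for Il6ra, 1 of 5 for Csf1r and 1 of 2 for Epor and for Il1rl1. It was below all of them in 3 gates for Csf3r, 2 each for Csf1r, Csf2ra and Il6ra and 1 for Il6st. The 8 feedback inhibitors and targets of the pathway list gave 49 gene and gate pairs with at least 60 UMIs, and this mouse was above the other 5 in 34 of them and below in 1. Socs3, the feedback inhibitor of the gp130 and G-CSF receptors, was above the other mice in 4 of 4 gates, with 63.9 CPM in multipotent progenitors against 2.30 to 7.96 CPM and 22.9 CPM in myelocytes against 0 to 1.03 CPM. Pim1, a STAT target, was above them in 8 of 10 gates, with 261 CPM in myelocytes against 20.2 to 42.4 CPM, and Bcl2l1, a survival gene, in 1 of 10. Among chains of the interleukin-1 system, the decoy Il1r2 was above in 3 of 3 gates and the partner Il1rap in 3 of 10. Csf2rb2 was above them in 4 of 5 gates (1.51 to 6.52 times the median). Its gates held other marker genes too: the 6 multipotent progenitor markers summed to 1430 CPM in its myelocytes, of which Ifitm1 alone was 1422 CPM, against 17.9 to 38.3 CPM, and its mature neutrophils had a median of 2536 UMIs per cell against 1182 to 1371. The part of these in the Csf2rb difference was not tested.

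A list of 58 partner chains, kinases, adaptors, inhibitors and ligands of the same pathways gave 341 gene and gate tests per comparison on 46 genes that passed the filter. With tamoxifen+rapamycin against tamoxifen, 4 were higher and 1 lower; with late rapamycin against tamoxifen, 7 were higher and 1 lower; and with tamoxifen+rapamycin against late rapamycin, 0 were higher and 2 lower. The background shares are those given for the receptors. DESeq2 called 1, 3 and 0 of them. The median log2 difference over the list was 0.05, 0.08 and -0.03. By role, the calls described here fell on partner receptors (Csf2rb2, Kit), adaptors (Gab2) and feedback inhibitors and targets (Pim1, Socs2), and the STAT factors, the inhibitors of the interleukin-1 family and the ligands had 0.

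Gab2, an adaptor that couples the common beta chain and gp130 to further signals, gave 5 of the 7 higher calls of late rapamycin against tamoxifen. In erythroid progenitors the tamoxifen mice had 24.0 and 30.7 CPM and the late rapamycin mice 139 and 75.1 CPM, a log2 difference of 1.82 ± 0.23 (adjusted p = 0.00449) that passed under every alternative run. The tamoxifen+rapamycin mice had 68.9 and 75.1 CPM, a difference of 1.33 ± 0.24 (adjusted p = 0.0473), lost without tamoxifen replicate 1 (0.0978), without tamoxifen+rapamycin replicate 2 (0.257) and with DESeq2 (0.514). The other Gab2 calls were in HSCs, lymphoid-primed progenitors, multipotent progenitors and megakaryocyte-erythroid precursors. Without tamoxifen replicate 1 the calls in HSCs (adjusted p = 0.262), lymphoid-primed progenitors (0.143) and megakaryocyte-erythroid precursors (0.671) were lost. Without tamoxifen replicate 2 those in HSCs (0.704) and megakaryocyte-erythroid precursors (0.396) were lost, and the last was also lost without late rapamycin replicate 1 (0.389).

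Pim1 in erythroid progenitors had 10.1 and 13 CPM with tamoxifen, 32.7 and 27.6 CPM with tamoxifen+rapamycin and 31.8 and 22.9 CPM with late rapamycin. The log2 differences from tamoxifen were 1.29 ± 0.19 (adjusted p = 0.0183) and 1.13 ± 0.19 (adjusted p = 0.0272). Without tamoxifen replicate 1 both were lost (0.0560 and 0.157), and the former was also lost without tamoxifen+rapamycin replicate 1 (0.132) or 2 (0.0585). Pim1 was also called in B progenitors, at 137 and 152 CPM with tamoxifen+rapamycin against 97.2 and 92.5 CPM with tamoxifen. Of the alternatives run, 9 lost this Pim1 call. They were DESeq2, adjustment over all gates and comparisons, no day block, stricter cell filters, the stricter gate and leaving out any tamoxifen or tamoxifen+rapamycin mouse. Csf2rb2 in multipotent progenitors was 2.52 ± 0.40 higher with late rapamycin than with tamoxifen on the log2 scale (adjusted p = 0.0346), on 24.4 and 4.61 CPM against 3.54 and 1.37 CPM. That call was lost without late rapamycin replicate 1 (0.315), tamoxifen replicate 1 (0.166) or tamoxifen replicate 2 (0.0556).

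Kit, the stem cell factor receptor, was higher in B progenitors with tamoxifen+rapamycin (52.2 and 29.6 CPM) than with tamoxifen (8.72 and 16.3 CPM), by 1.61 ± 0.33 on the log2 scale (adjusted p = 0.00727), a call lost without tamoxifen replicate 1 or tamoxifen+rapamycin replicate 1 (1.0 in both).

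Socs2, a feedback inhibitor, was lower with tamoxifen+rapamycin than with late rapamycin in multipotent progenitors (4.78 and 3.75 against 15.8 and 12.5 CPM; log2 difference -1.77 ± 0.31, adjusted p = 0.0467) and in HSCs (26.8 and 34.6 against 80.0 and 73.1 CPM; -1.22 ± 0.27, adjusted p = 0.0476). The tamoxifen mice lay between in both gates. In multipotent progenitors the call was lost without tamoxifen replicate 2 (0.0559), tamoxifen+rapamycin replicate 1 (0.492) or replicate 2 (0.158). In HSCs it held without late rapamycin replicate 1 (0.0154) and was lost when any of the other 5 mice was left out (0.0927 to 0.196).

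Without the day block the calls of Csf2rb2 (adjusted p = 0.369), Kit (0.908), Socs2 (0.122 in multipotent progenitors and 0.101 in HSCs) and Gab2 in HSCs (0.111), lymphoid-primed progenitors (0.0624) and multipotent progenitors (0.237) were lost. The looser gate lost those of Csf2rb2 (0.0926), Socs2 (0.0903 in multipotent progenitors and 0.0720 in HSCs) and Gab2 in erythroid progenitors with tamoxifen+rapamycin (0.0705). Adjustment over all gates and comparisons lost that Gab2 call (0.0780), Gab2 in megakaryocyte-erythroid precursors (0.0935), Pim1 in erythroid progenitors with late rapamycin (0.0637) and Socs2 (0.0678 and 0.0755). Stricter cell filters lost Socs2 (0.0565 and 0.0975), Kit (0.0628) and Gab2 in HSCs (0.0673). The stricter gate lost those of Kit (0.213), Socs2 (0.0736 and 0.351) and Gab2 in HSCs (0.403), lymphoid-primed progenitors (0.0536) and megakaryocyte-erythroid precursors (0.0672). Of the calls described here, DESeq2 kept Gab2 in erythroid progenitors (0.0088) and multipotent progenitors (2.36e-05) for late rapamycin against tamoxifen and Pim1 in erythroid progenitors with tamoxifen+rapamycin (0.0373), and gave no adjusted p for Csf2rb2 and Socs2 in multipotent progenitors.

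Of the 11 ligands listed, 2 passed the filter in any gate. Il1b, an interleukin-1 ligand, had 712 UMIs in all gates, with 253 CPM on average in mature neutrophils (71.0 to 537 CPM across 6 mice). Csf1, the ligand of Csf1r, had 577 UMIs, with its highest mean, 10.7 CPM, in HSCs, and Epo had 87 UMIs. Csf2 and Il3 had 0 UMIs in all gates, Csf3 had 1 and Il6 had 18.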

How the data were processed

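Per the labels' protocols, marrow cells of 6 mice were run on Chromium 3' v3 with TotalSeq B hashtags. The deposited values are UMI counts per gene and cell; Cell Ranger 7.0.0 and mm10 are named in the submitters' processing notes and 8.0.1 in the file headers, and whether introns were counted is not given in the sources used here. Cells needed 1 hashtag above background, at least 500 genes, 1000 UMIs and at most 10% mitochondrial UMIs: 17413 of 25058 and 16328 of 21409 barcodes were kept. Barcodes with several hashtags (3338 and 2569) and likely doublets within a mouse, neighbours of those (1626 and 1248), were removed. Cells were gated by scaled marker scores (at least 0.4, leading by 0.1); 2380 ungated cells lay within 0.1 below it. The scoring rule was set after seeing the data. Counts were summed per mouse and gate and fitted with edgeR 4.0.16 (quasi-likelihood, TMM, treatment and day), adjusted by Benjamini-Hochberg over all genes of a gate; levels are plain CPM and day values plain log2 ratios. DESeq2 1.42.0 was an alternative. The scripts ran in R 4.3.3 and Python 3.11.15 and were tested on simulated data.

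The replicate number marks the shared processing day in the labels, so the block is in the fit. Over 30 pairs of groups and gates, the differences between days correlated with r from -0.007 to 0.35 (median 0.07), 9 of them over 0.1. The receptors, marker lists and pathway list were chosen with earlier results of these data known. Named were all 9 receptors, up to 4 called pathway genes per comparison with the smallest adjusted p, and the 3 closest profiles per receptor. A called pathway gene is not reported here. Mice are the replicates. No pseudocount enters the fits, and intervals cover counting error only.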

Additional observations from a re-analysis of the deposited data

Results flagged for a closer look

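Of 50 receptor and gate pairs with at least 100 UMIs, 10 had 1 mouse far from the other 5, with a gap to the nearest mouse that exceeded Dixon's 95% critical share of the whole range. That critical share is passed in 1 of 20 cases when the 6 mice are alike. Here they span 3 treatments and 2 days, and all pairs use the same mice, so 1 in 20 is no measure of chance. The share of all gene and gate pairs that pass this rule is not given here, so the 10 cannot be read as particular to the receptors. By rank alone, without the gap rule, late rapamycin replicate 1 was above the other 5 mice in 23.3% of all gene and gate pairs with at least 60 UMIs. Csf2rb gave 6 of the 10 flagged pairs, all with late rapamycin replicate 1 high: 84.8 CPM in HSCs (next mouse 36.2), 105 in multipotent progenitors (next 56.9), 105 in neutrophil progenitors (next 53.8), 306 in myelocytes (next 111), 462 in mature neutrophils (next 235) and 271 in monocytes (next 164). The same mouse was high for Il6ra in myelocytes (85.3 CPM, next 69.3) and Il6st in HSCs (61.2 CPM, next 28.1), and low for Il6ra in neutrophil progenitors (28.0 CPM, next 53.1). Late rapamycin replicate 2 was low for Il1r1 in multipotent progenitors, at 81.0 CPM against 125 in the next mouse.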

How the results depend on the processing

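The count of receptor calls was 0 in each comparison with DESeq2, stricter or looser gates, stricter cell filters, adjustment over all gates and comparisons, and no replicate block (the fit without the paired days, with 4, 10 and 5 at an unadjusted p under 0.05). The unadjusted count over all genes without the replicate block is not given here. Without the low-count filter there were 88 tests per comparison. The count of receptor calls was then 2 for tamoxifen+rapamycin against tamoxifen, 6 for late rapamycin against tamoxifen and 3 for tamoxifen+rapamycin against late rapamycin. Leaving out each mouse in turn gave 0 to 2, 0 to 16 and 0 to 13, the highest without late rapamycin replicate 2. Leaving out a mouse leaves its treatment with a single mouse. The shares of all genes called without the low-count filter or without a mouse are not given here. The counts under these settings therefore cannot be read as particular to the receptors. The log2 difference of Csf2rb in megakaryocyte-erythroid precursors, late rapamycin minus tamoxifen, reversed to -0.21 without late rapamycin replicate 1 and to -0.20 without tamoxifen replicate 1. That difference reached 2.60 without tamoxifen replicate 2. Il1r1 in HSCs, tamoxifen+rapamycin minus late rapamycin, reversed to -0.48 without late rapamycin replicate 2 and to -0.06 without tamoxifen+rapamycin replicate 2, and was 1.26 without late rapamycin replicate 1; the cause was not tested. Thinning to 1000 UMIs gave 250 CPM for Csf1r and 419 CPM for Il6ra in monocytes, and stricter cell filters 501 CPM for Csf3r in mature neutrophils. Low depth per gate limits Epor, Il1rl1 and Il6st outside their leading gates.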
